A study of Mus musculus with 40 samples.

Results

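The response of primary mammary tumors to anti-PD-1 was compared between the 4T1-based and the 66cl4-based intraductal model. It was measured by RNA-sequencing in the 19 tumors, out of 39 in the deposited table, that were untreated or had received anti-PD-1 without chitin. For each of 14318 genes, the untreated level was subtracted from the level under anti-PD-1 in each model, and the 66cl4 response was then subtracted from the 4T1 response. A value above 0 thus means that a gene was more increased, or less decreased, by anti-PD-1 in 4T1 tumors than in 66cl4 tumors.

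PD-1 is an inhibitory receptor that T-cells display after activation. Its ligand PD-L1, encoded by Cd274, is made by tumor cells and myeloid cells under the influence of interferon gamma. Antibodies that block PD-1 release T-cells from this inhibition, and blocked tumors that respond commonly gain T-cell transcripts, cytotoxic effectors and interferon gamma-induced genes. The 4T1 and 66cl4 lines are mammary carcinoma lines from BALB/c mice that are used as models of triple-negative breast cancer.

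All mice were wild-type female BALB/c mothers that were lactating when luciferase-expressing cells of either line were injected into the milk ducts. The groups were 4T1 untreated (4 tumors, numbered 1, 2, 4 and 5), 4T1 anti-PD-1 (5 tumors), 66cl4 untreated (5 tumors) and 66cl4 anti-PD-1 (5 tumors). Anti-PD-1, derived from clone RMP1-14, was given intraperitoneally each week at a dose of 200 µg, and tumors were collected at 5 w p.i. The control tumors came from untreated mice, so that a control antibody does not enter these comparisons. Each model rests on 1 cell line. Cells were injected into the third mammary gland pair, so a mouse could carry more than 1 tumor. Whether each sequenced tumor came from its own mouse is not stated in the sources used here. Tumors of a group that share a mouse would not be independent, and p-values measure the spread between these tumors. RNA was taken from whole tumors, in which fewer cells of a type and less RNA per cell cannot be told apart.

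The 19 tumors held 5105898 to 9898937 reads, and levels are given as normalized read counts, the reads of a gene divided by the size factor of its tumor. Untreated tumors of both models carried the epithelial keratin Krt8, at 6546 to 10300 in 4T1 and 3152 to 4928 in 66cl4. The tight junction gene Cldn4 was near absent in untreated 66cl4 tumors (2.58 to 33.2) against 3956 to 5976 in 4T1. Among 4T1 tumors, anti-PD-1 tumor 2 stood apart from the other 4 tumors of its group. On the first principal component of the 4T1 tumors, which held 44.1% of their variance, this tumor lay at 32.7, against -24.6 to -15.9 for the other 4 and -0.42 to 27.7 for the untreated tumors. Results are therefore given with it and, as an added description, without it, and "tumor 2" below is this tumor. In 66cl4, untreated tumor 3 and anti-PD-1 tumor 3 had raised skeletal muscle genes, with a mean level of 8.69 and 7.36 against 6.35 to 6.74 in the other 8 tumors. In 4T1 the mean level of these genes was 7.26, 6.61, 9.01 and 8.10 in untreated and 7.30, 6.97, 9.68, 8.05 and 7.35 in treated tumors.

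In 4 of the 5 anti-PD-1 4T1 tumors, the mean levels of T-cell receptor, B-cell, adipocyte and milk protein genes were above, and that of hypoxia genes below, those of every untreated 4T1 tumor. Treated and untreated 66cl4 tumors overlapped in the mean level of each of these lists. The median response of adipocyte genes was 1.73 in 4T1 and 0.25 in 66cl4, and that of genes of milk proteins and lactating epithelium 1.45 and 0.24. For B-cell genes it was 1.00 and 0.06, and for T-cell receptor genes, which transmit antigen recognition, 0.60 and 0.09. Whether the lymphocyte values follow the share of mammary fat and gland tissue in a tumor was not tested. Genes of hypoxia and glycolysis had -0.60 and -0.11, and genes of MHC class II presentation 0.52 and 0.56. These values are on the VST scale, a log2-like scale on which small counts are compressed, and with all tumors no single gene passed the adjusted test.

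With all 19 tumors, the response differed between the models at an adjusted p under 0.05 for 0 of 14318 genes (0%, limma). The smallest adjusted p was 0.573. At an unadjusted p under 0.05 there were 405 genes with a higher response in 4T1 (2.83%) and 614 with a lower response (4.29%). Within each model alone, the number of genes at an adjusted p under 0.05 was also 0 in 4T1 (0%, smallest adjusted p 0.0507) and 0 in 66cl4 (0%), for which the unadjusted p was under 0.05 in 1113 higher (7.77%) and 1246 lower (8.7%) genes in 4T1 and in 103 higher (0.719%) and 66 lower (0.461%) genes in 66cl4. These p-values rest on 1 estimate of the spread for both models. With weights per model, 1405 genes in 4T1 and 517 in 66cl4 had an unadjusted p under 0.05 (limma), against 2359 and 169 without weights. The weight was 0.626 for 4T1 and 1.525 for 66cl4 tumors, a lower weight standing for a wider spread between tumors. The spread over genes of the anti-PD-1 response was wider in 4T1 than in 66cl4, with an SD of 0.239 against 0.102 on the VST scale. A response beyond 1 in size on this scale was found for 79 genes in 4T1 and 0 genes in 66cl4. The difference in spread was not tested. The 2 responses, which share no tumor, had Pearson's r = 0.252 and Spearman's rho = 0.162 across the 14318 genes, which are not independent replicates.

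Without 4T1 anti-PD-1 tumor 2, 206 genes differed between the models at an adjusted p under 0.05, 116 higher (0.81%) and 90 lower (0.629%) in 4T1. The response within 4T1 then passed for 2165 genes, 1148 higher (8.02%) and 1017 lower (7.1%), and that within 66cl4 for 0. Without 4T1 untreated tumor 5, the tumor with the highest T-cell levels of its group, 20 genes differed between the models and 594 responded in 4T1. Tumor 2 was singled out on these same values, as a treated tumor that lay with the untreated ones, and the leading genes were chosen by the same contrast. Values without it are therefore a description of its weight and give no support to a gene. The counts depended on which 4T1 tumors entered the fit, and the genes that follow are described with the values of every tumor, in the order of their numbers.

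**Figure D1:**
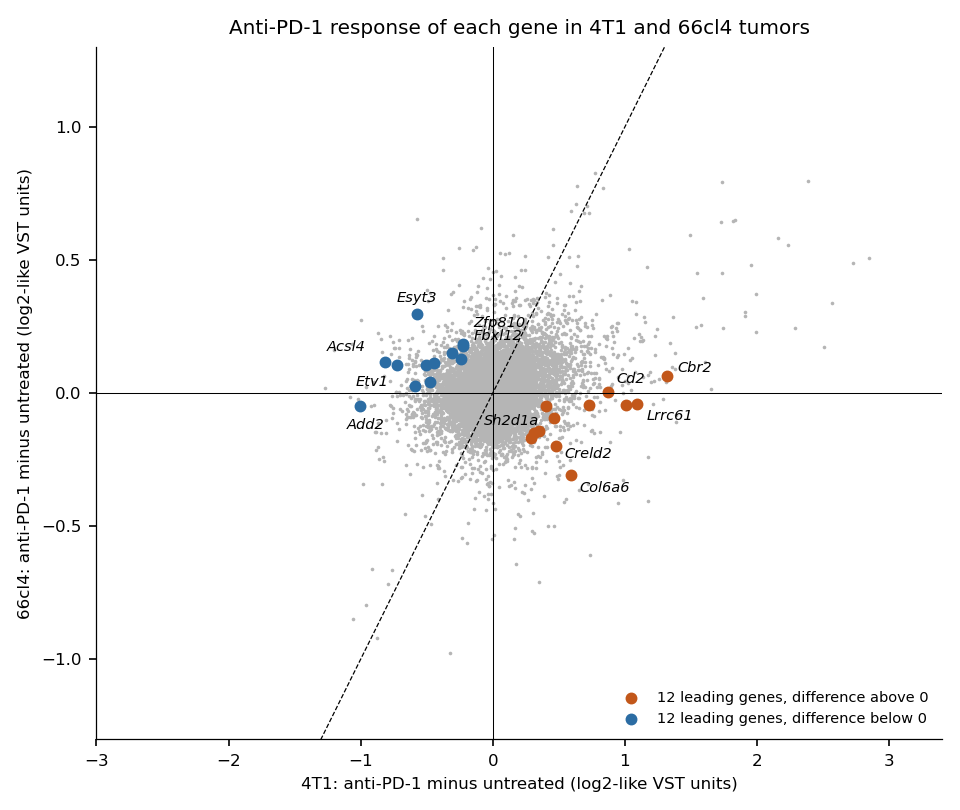
Response to anti-PD-1 of 14318 genes, as anti-PD-1 minus untreated in log2-like VST units, in 4T1 tumors (horizontal axis, 4 untreated and 5 treated) and 66cl4 tumors (vertical axis, 5 and 5). The dashed line marks equal responses, and the coloured points are the 24 genes with the smallest p for the difference. The cloud is wider along the 4T1 axis (SD 0.239) than along the 66cl4 axis (SD 0.102), and the coloured genes lie away from 0 mainly along the 4T1 axis.

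The 12 genes that led the list with a higher response in 4T1 were chosen by the p of this contrast, and no share of any cell type among them was tested. They included Sh2d1a, which encodes the adaptor SAP of SLAM-family receptors in T-cells and natural killer cells, Lax1, an adaptor that dampens antigen receptor signalling, Cd2, an adhesion receptor of T-cells and natural killer cells, and Satb1, a chromatin organizer of developing T-cells. All 12 were higher under anti-PD-1 in 4T1, and 10 of the 12 were lower in 66cl4. Their adjusted p for the difference lay between 0.573 and 0.650 with all tumors.

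Sh2d1a (chrX:42502565-42522097 in RefSeq, GRCm38.p6) had 3.55, 3.13, 2.73 and 6.55 normalized read counts in the untreated 4T1 tumors and 26.98, 8.03, 19.2, 21.3 and 19.5 in the anti-PD-1 tumors. In 66cl4 it had 3.75, 4.58, 3.52, 3.86 and 4.00 in untreated and 3.85, 2.84, 3.56, 3.75 and 1.19 in anti-PD-1 tumors. All 5 treated 4T1 tumors lay above the 4 untreated ones, with tumor 2 the lowest, whereas the 66cl4 groups overlapped at a level of few reads. The VST response was 0.40 ± 0.07 (SE) in 4T1 and -0.05 ± 0.07 in 66cl4, a difference of 0.45 ± 0.10. Without tumor 2 the difference was 0.51 (limma, adjusted p = 0.0115).

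Lax1 had 11.8, 6.25, 9.11 and 38.01 normalized read counts in untreated and 65.5, 28.1, 87.02, 98.1 and 67.5 in anti-PD-1 4T1 tumors. In 66cl4 the counts were 8.76, 11.5, 7.03, 7.73 and 9.34 without and 8.99, 5.68, 14.3, 6.25 and 3.58 with anti-PD-1. Apart from tumor 2, which lay below untreated tumor 5, the treated 4T1 tumors were above every untreated one, and the 66cl4 groups overlapped. The difference of responses was 0.77 ± 0.18, and 0.89 without tumor 2 (adjusted p = 0.0128). For Cd2 likewise, tumor 2 alone of the treated 4T1 tumors was below untreated tumor 5. Its counts were 11.8, 10.9, 26.4 and 49.8 in untreated and 110.5, 42.8, 145, 102 and 136 in anti-PD-1 4T1 tumors. In 66cl4 they were 8.76, 12.6, 15.8, 14.2 and 13.3 without and 3.85, 22.7, 9.50, 20 and 14.3 with anti-PD-1, which overlapped. The difference of responses of Cd2 was 0.86 ± 0.21, and that of Satb1 was 0.55 ± 0.15.

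The other leading genes with a higher response in 4T1 are described next. For Col6a6, a chain of the matrix protein collagen VI, the mean under anti-PD-1 was higher in 4T1 and lower in 66cl4. It had 3.55, 1.56, 8.20 and 15.7 normalized read counts in untreated and 53.97, 9.37, 55.03, 40.95 and 32.2 in anti-PD-1 4T1 tumors, against 30.04, 24.1, 42.2, 24.5 and 26.7 without and 16.7, 3.79, 17.8, 21.2 and 9.55 with anti-PD-1 in 66cl4. Within 66cl4 every treated tumor was below every untreated one, which held for 45 genes (0.314%), while in 4T1 tumor 2 lay among the untreated tumors. The difference of responses, 0.90 ± 0.19, was 1.03 without tumor 2 (adjusted p = 0.0115).

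Cbr2, a carbonyl reductase, had 48.5, 43.8, 210.4 and 259.5 normalized read counts in untreated and 436, 285, 458, 615 and 510.4 in treated 4T1 tumors. All treated tumors were above the untreated ones, but they stayed below the 66cl4 tumors, which held 1453, 1913, 1781, 1504 and 1782 without and 2053, 1983, 1638, 1406 and 1798 with anti-PD-1. Cbr2 had the highest difference of responses of the 24 leading genes, at 1.26 ± 0.33. Mgst1, a microsomal glutathione transferase, differed by 1.05 ± 0.27, Lrrc61 by 1.13 ± 0.27, Creld2, a gene of the endoplasmic reticulum stress response, by 0.68 ± 0.18 and Ift20, a component of intraflagellar transport, by 0.46 ± 0.11. The non-coding RNA Dnm3os, which had 0 reads in all 5 treated 66cl4 tumors and 0 to 4.40 normalized read counts in the untreated ones, differed by 0.46 ± 0.12, and Samd3 by 0.49 ± 0.13. Without tumor 2, the adjusted p (limma) was under 0.05 for 11 of the 12 genes and 0.0771 for Dnm3os. The 12 were chosen by this contrast, and 0.81% of all genes passed in this direction.

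The 12 leading genes with a lower response in 4T1 were lower under anti-PD-1 in all cases in 4T1, and 11 of them were higher in 66cl4. For 9 of the 12, all treated 4T1 tumors were below all untreated 4T1 tumors, as was the case for 159 of all genes (1.11%). These genes were chosen by the same values. They include zinc finger proteins (Zfp113, Zfp810), the F-box protein gene Fbxl12, and Zfp36l2, whose product promotes decay of mRNAs with AU-rich elements.

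Zfp113 had 131, 148, 141 and 155 normalized read counts in untreated and 88.7, 115, 99.8, 92.1 and 96.7 in anti-PD-1 4T1 tumors. The counts in 66cl4 were 41.3, 57.3, 37.8, 47.7 and 38.7 in untreated and 47.5, 69.2, 55.8, 51.3 and 65.6 in treated tumors. The treated 4T1 tumors were all lower, and the 66cl4 groups overlapped with a higher treated mean. The response was -0.31 ± 0.07 in 4T1 and 0.15 ± 0.06 in 66cl4, a difference of -0.46 ± 0.09, and -0.49 without tumor 2 (adjusted p = 0.0171). Fbxl12 was the 1 gene of the table whose groups were apart in both models and in opposite directions (0.00698%). Singly, 159 genes (1.11%) were lower without overlap in 4T1 and 48 (0.335%) higher in 66cl4. Whether 1 gene with both exceeds what these shares give was not tested. The counts of Fbxl12 were 234, 297, 243 and 233 in untreated and 195, 206, 191, 190.2 and 216 in treated 4T1 tumors. In 66cl4 they were 130.2, 106, 125, 136 and 108 in untreated and 155, 142, 138, 159 and 152 in treated tumors. The difference of responses of Fbxl12 was -0.40 ± 0.09.

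Esyt3, an extended synaptotagmin that tethers the endoplasmic reticulum to the plasma membrane, had 320.4, 246, 444 and 232 normalized read counts in untreated 4T1 tumors and 185, 175, 115, 178 and 199 under anti-PD-1. In 66cl4 it was at a few reads, 5.01, 6.88, 0.879, 3.86 and 2.67 without and 24.4, 15.2, 5.94, 12.5 and 9.55 with treatment. Treated 4T1 tumors were all lower, and the treated 66cl4 tumors were mostly higher, with 1 within the untreated range. Esyt3 had the smallest p of all genes, with a difference of -0.87 ± 0.18 at an adjusted p of 0.573 (limma) with all tumors and 0.0272 without tumor 2.

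Etv1, an ETS-family transcription factor, had 1286, 1246, 1821 and 851 normalized read counts in untreated and 739, 838, 586, 620.2 and 818 in treated 4T1 tumors, which did not overlap. For 66cl4, the values were 739.7, 774, 656, 784 and 623 without and 744, 863, 657, 820.1 and 812 with anti-PD-1, which did. The difference was -0.83 ± 0.20. Acsl4, an acyl-CoA synthetase that loads polyunsaturated fatty acids into membranes, was the leading gene whose difference moved most without tumor 2. Its counts in untreated 4T1 tumors were 4553, 3922, 4387 and 4114, and 1914, 4111, 1798, 2469 and 2056 in treated ones. Tumor 2 was within the untreated range, and the other 4 were at 2469 or less. The difference was -0.93 ± 0.23 with tumor 2 and -1.12 without it (adjusted p = 0.00292).

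The remaining leading genes with a lower response were Dlg3, a scaffold of cell junctions (-0.51 ± 0.11), Zfp36l2 (-0.61 ± 0.14), Limd1, a LIM-domain adaptor (-0.36 ± 0.08), the chloride channel gene Clcn2 (-0.56 ± 0.13), the epithelial serine protease gene Prss8 (-0.61 ± 0.15), the cytoskeletal adducin gene Add2 (-0.96 ± 0.24) and Zfp810 (-0.41 ± 0.10). Dlg3, Prss8 and Add2 were far lower in 66cl4 than in 4T1, Add2 at 1.29 to 3.52 against 92 to 333 normalized read counts in untreated tumors. Without tumor 2, the adjusted p (limma) was under 0.05 for each of the 12, which were chosen by this contrast, and for 0.629% of all genes in this direction.

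**Figure D2:**
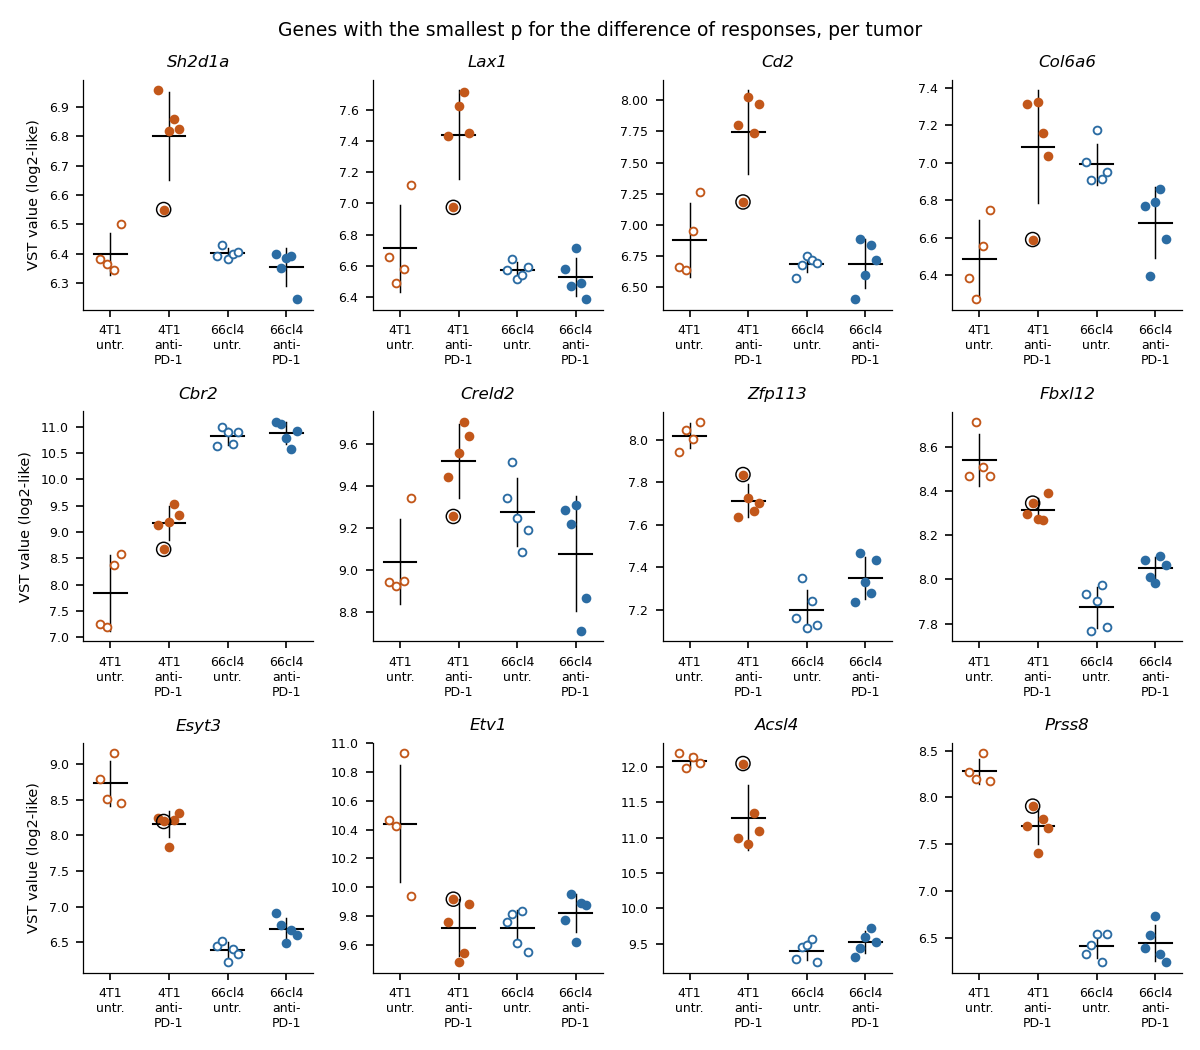
VST values (log2-like, vertical axes that do not start at 0) of 12 of the 24 leading genes in each untreated (open) and anti-PD-1 (filled) tumor of 4T1 (orange) and 66cl4 (blue). Horizontal bars are means, vertical lines 1 SD, and the black circle marks 4T1 anti-PD-1 tumor 2. In Sh2d1a, Lax1 and Cd2 the treated 4T1 tumors other than tumor 2 lie above the rest, in Fbxl12 both models are separated in opposite directions, and in Acsl4 tumor 2 lies with the untreated tumors.

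Pdcd1, which encodes PD-1, had 117, 68.8, 67.4 and 142 normalized read counts in untreated 4T1 tumors and 186, 118, 294, 190.2 and 201 in treated ones. In 66cl4 it had 17.5, 17.2, 9.67, 20.6 and 40.04 without and 12.8, 26.5, 27.3, 41.3 and 21.5 with anti-PD-1. In 4T1, 4 of 5 treated tumors were above all untreated ones, and in 66cl4 the groups overlapped. The difference of responses was 0.49 ± 0.21 (adjusted p = 0.68, and 0.122 without tumor 2). Cd274, the gene of PD-L1, had 662, 308, 374 and 1045 in untreated and 392, 1404, 805, 352 and 407 in treated 4T1 tumors. The 66cl4 tumors had 108, 101, 80.9, 121 and 152 without and 127, 108, 174, 170.0 and 112 with anti-PD-1. Tumor 2 was the highest of all, followed by untreated 4T1 tumor 5, and the groups overlapped in both models. The difference for Cd274 was -0.07 ± 0.42, and 0.20 without 4T1 untreated tumor 5.

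Among 14 genes of the PD-1 axis and other inhibitory checkpoints, the median difference of responses was 0.30, against 0.00 over all 14318 genes, and 0.00 was also the median of all genes within either model. In this list, 5 genes had an unadjusted p under 0.05, all higher in 4T1 (Tox, Lag3, Tigit, Pdcd1 and Ctla4), and 0 were lower. Over all genes, 2.83% were higher and 4.29% lower at this p, the shares to set beside this list and those below. Genes of 1 list can change together, so counts within a list are not independent. Tigit, an inhibitory receptor of T-cells and natural killer cells, had 82.8, 25.02, 32.8 and 111 normalized read counts in untreated 4T1 tumors and 126, 162, 186, 119 and 132 in treated ones. The 66cl4 tumors held 290.4, 222, 121, 186 and 167 without and 236, 128, 259, 185 and 210.0 with anti-PD-1. It was the 1 gene of this list whose 4T1 groups did not overlap with tumor 2 included, as held for 93 of all genes in this direction (0.65%). The difference for Tigit was 0.64 ± 0.25. Lag3 differed by 0.46 ± 0.18 and Tox, a transcription factor of exhausted T-cells, by 0.47 ± 0.16. Without tumor 2, the difference passed the adjusted test for 0 of these 14 genes, and the response within 4T1 for 7, all higher (8.02% of all genes).

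The 15 genes of the T-cell receptor complex and its coreceptors had a median response of 0.60 in 4T1 and 0.09 in 66cl4, and a median difference of 0.46. All 15 had a higher response in 4T1 than in 66cl4, and 9 had an unadjusted p under 0.05, against 2.83% of all genes in this direction. The kinase gene Lck had 111, 75.1, 95.6 and 242 normalized read counts in untreated 4T1 tumors and 314, 149.9, 372, 277 and 396 in treated ones. In 66cl4 it lay at 46.3, 48.1, 37.8, 50.2 and 49.4 without and 41.1, 54.9, 45.1, 56.3 and 48.9 with treatment. In 4T1 only tumor 2 of the treated tumors was below untreated tumor 5, and the 66cl4 groups overlapped. The difference was 0.77 ± 0.24, and 0.93 without tumor 2 (adjusted p = 0.0277).

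Without tumor 2, 3 of these 15 genes passed the adjusted test of the difference, namely Cd2, Lck and Cd5, against 0.81% of all genes in this direction. Cd4, the coreceptor of helper and regulatory T-cells, had 21.3, 23.4, 37.4 and 73.4 normalized read counts in untreated and 182, 49.5, 189, 124 and 198 in treated 4T1 tumors, against 25.03, 40.1, 8.79, 24.5 and 14.7 without and 17.97, 47.4, 24.9, 76.3 and 26.2 with anti-PD-1 in 66cl4. Its difference was 0.67 ± 0.28 (adjusted p = 0.68, and 0.0641 without tumor 2). Cd8a, which encodes a chain of the coreceptor of cytotoxic T-cells, had 212, 113, 139 and 397 in untreated and 319.9, 262, 633, 336 and 354 in treated 4T1 tumors. Tumors of the 66cl4 model held 13.8, 8.02, 7.91, 27.1 and 24.02 without and 24.4, 29.4, 28.5, 35 and 31.03 with anti-PD-1, so that both models had higher means under anti-PD-1. The difference of 0.37 ± 0.28 was smaller than that of Cd4, was not tested against it, and turned negative with limma-voom (-0.16) and at equal read depth (-0.10).

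**Figure D3:**
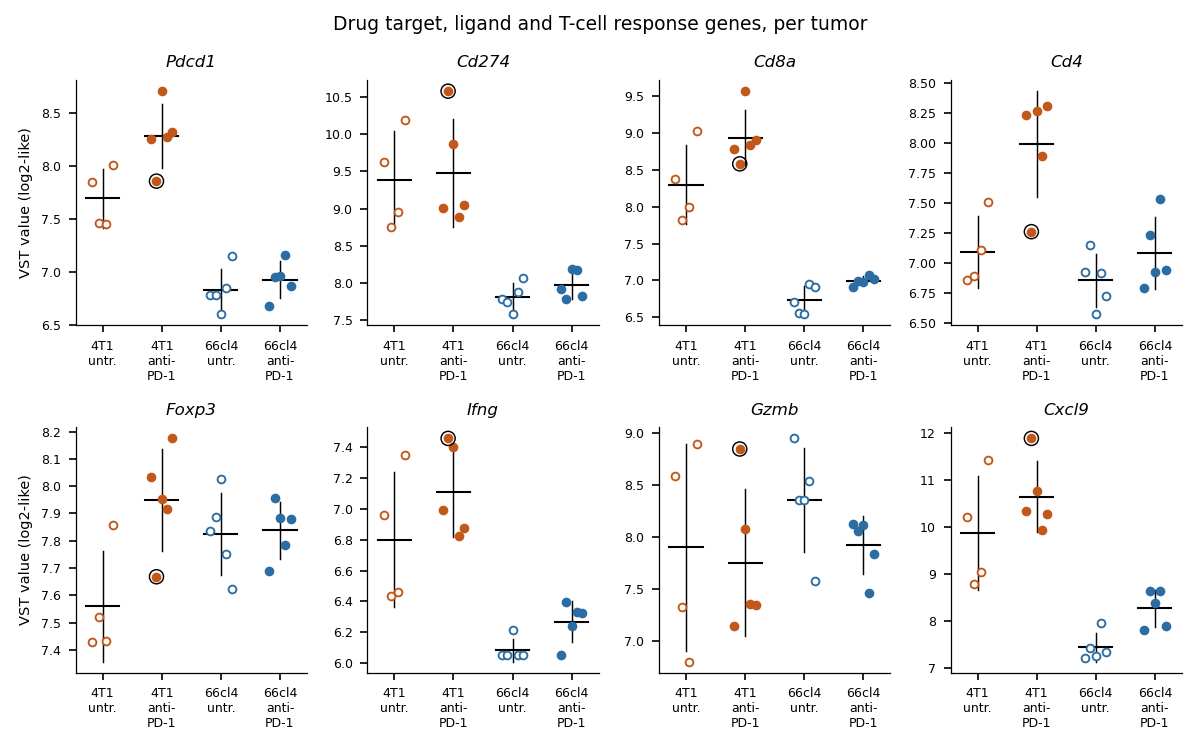
VST values (log2-like, axes that do not start at 0) of the drug target, its ligand and 6 genes of the T-cell response in each tumor, drawn as in the plot of the leading genes. Pdcd1, Cd4 and Foxp3 are higher in treated 4T1 tumors other than tumor 2 (circled), which has the highest Cd274, Ifng and Cxcl9 of its group.

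Cytotoxic and natural killer effectors (14 genes) had a median difference of 0.37, with 14 of 14 responses higher in 4T1 than in 66cl4. The unadjusted p was under 0.05 for 7 of them, against 2.83% of all genes in this direction. Ccl5, a chemokine secreted by cytotoxic T-cells, had 68.6, 60.98, 75.6 and 367 normalized read counts in untreated 4T1 tumors and 353, 483, 1255, 611 and 363 in treated ones. Treated tumors 1 and 5 were just below untreated tumor 5, all treated tumors were above the other 3 untreated ones, and tumor 2 was not low for this gene. In 66cl4 Ccl5 had 77.6, 50.4, 32.5, 68.3 and 53.4 without and 64.2, 109.9, 113, 67.5 and 63.2 with anti-PD-1, and its difference of 1.32 ± 0.41 was the highest of this list (adjusted p = 0.65, and 0.116 without tumor 2). Nkg7, a granule protein of cytotoxic cells, differed by 0.66 ± 0.21, the receptor gene Klrd1 by 0.50 ± 0.16 and the granzyme gene Gzmk by 0.43 ± 0.17.

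Ifng and Gzmb showed no such split between treated and untreated 4T1 tumors. Ifng, the gene of interferon gamma, had 27.2, 4.69, 5.46 and 57.7 normalized read counts in untreated and 29.6, 68.2, 62.7, 19.6 and 22.5 in treated 4T1 tumors, and at most 3.79 in any 66cl4 tumor. Gzmb, the gene of granzyme B, had 262, 54.7, 18.2 and 351 in untreated and 39.8, 337, 154, 58.01 and 56.96 in treated 4T1 tumors. In 66cl4 it had 370.5, 208, 209, 251 and 81.4 without and 163, 151, 160.4, 68.8 and 115 with anti-PD-1. Both genes spread widely within each 4T1 group, with tumor 2 highest among the treated tumors. The differences were 0.13 ± 0.23 for Ifng and 0.29 ± 0.54 for Gzmb, and their sign depended on the setting.

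Regulatory T-cells and costimulation (8 genes measured of 10) had a median difference of 0.37. Against 2.83% of all genes in this direction, 3 of the 8 had an unadjusted p under 0.05. These were Foxp3, the lineage factor of regulatory T-cells, with 0.38 ± 0.15, the costimulatory receptor Cd27 with 0.44 ± 0.18 and Icos with 0.53 ± 0.22. Foxp3 had 65.02, 75.1, 65.6 and 118 normalized read counts in untreated and 146, 92.3, 133, 127 and 172 in treated 4T1 tumors. In 66cl4 it was at 115, 123, 145, 103 and 86.8 without and 94.99, 134, 122, 108 and 122 with anti-PD-1, and the groups overlapped in both models. Without tumor 2, its adjusted p was 0.11.

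The B-cell list gave the highest immune difference. Of its 14 genes 8 were measured, with a median response of 1.00 in 4T1 and 0.06 in 66cl4 and a median difference of 0.95. For 6 of the 8 the unadjusted p was under 0.05, against 2.83% of all genes in this direction. Cd79a, a signalling chain of the B-cell receptor, had 1.18, 6.25, 20.04 and 24.9 normalized read counts in untreated 4T1 tumors and 207, 2.68, 62.7, 142 and 216 in treated ones. For 66cl4, the values were 21.3, 27.5, 17.6, 11.6 and 44.04 without and 32.1, 33.1, 41.6, 15 and 21.5 with anti-PD-1. In 4T1, tumors 1, 3, 4 and 5 of the treated group were above all untreated tumors and tumor 2 was near the lowest of them, while the 66cl4 groups overlapped.

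Ms4a1, the gene of CD20, had 1.18, 0, 2.73 and 13.1 in untreated 4T1 tumors and 118, 0, 55.03, 69.1 and 131 in treated ones, again with tumor 2 at the bottom. In 66cl4 it did not go above 10.4. Pax5, the B-cell lineage factor, differed by 0.72 ± 0.25 between models and Cd79b by 0.95 ± 0.34. Without tumor 2, 5 of the 8 genes passed the adjusted test of the difference, against 0.81% of all genes in this direction. Cd79b passed at an adjusted p of 0.0115 (limma) and a difference of 1.24. The read counts of these genes in untreated tumors are so low that the VST scale understates their ratios.

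ETS-family factors are known regulators of many lymphocyte genes, and the promoters of Lck and Cd79a are shown because they hold an ETS motif close to the start. The letters AGGAAGT, searched on both strands, occurred in the 250 bases before an annotated start in 5 of the 9 T-cell receptor list genes that have an entry in the RefSeq promoter table (55.6%) and in 1 of 4 B-cell list genes (25%), against 9.14% of the 11334 genes of the table with an entry. Among the leading genes with an entry, it was in 4 of 9 higher (Dnm3os, Ift20, Samd3 and Satb1) and 0 of 9 lower ones. Cd2, Sh2d1a and Cd79b have no entry. The 250 bases before the start are printed 5′ to 3′ in the direction of the gene, in lower case with the motif in capitals (RefSeq, GRCm38.p6). A match is a description of the letters only.
Lck, minus strand, chr4:129573642-129573891: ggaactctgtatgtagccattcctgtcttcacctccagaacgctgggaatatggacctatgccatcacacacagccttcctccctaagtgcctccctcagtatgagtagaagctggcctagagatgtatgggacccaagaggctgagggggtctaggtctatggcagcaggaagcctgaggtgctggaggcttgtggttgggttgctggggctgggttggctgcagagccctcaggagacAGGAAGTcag
Cd79a, plus strand, chr7:24897247-24897496: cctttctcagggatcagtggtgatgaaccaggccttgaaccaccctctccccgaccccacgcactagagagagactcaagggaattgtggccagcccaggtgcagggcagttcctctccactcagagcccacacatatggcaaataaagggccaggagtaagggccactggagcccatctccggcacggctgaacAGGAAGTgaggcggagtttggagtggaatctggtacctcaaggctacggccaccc

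For antigen presentation and interferon-induced genes, the medians of both models were close. The 9 genes of MHC class II presentation had a median response of 0.52 in 4T1 and 0.56 in 66cl4, with a median difference of 0.02, and for 0 genes was the unadjusted p of the difference under 0.05. All 9 were higher under anti-PD-1 in both models, although 0 passed the adjusted test in either (limma). In 4T1, 1 passed it without tumor 2 (8.02% of all genes in this direction). By tumor, the mean level of the MHC class II list was 10.75, 10.01, 10.17 and 11.24 in untreated and 10.95, 11.04, 11.00, 11.30 and 11.10 in treated 4T1 tumors. In 66cl4 the mean levels were 8.07, 8.80, 8.01, 8.98 and 8.63 in untreated and 8.31, 9.48, 8.65, 9.76 and 8.76 in treated tumors. Only anti-PD-1 tumors 2 and 4 of 66cl4 were above all untreated 66cl4 tumors, and in 4T1 only treated tumor 4 was above untreated tumor 5. MHC class I presentation (9 genes) had 0.23 and 0.18, and the 18 interferon gamma-induced genes 0.20 and 0.29, with 17 of 18 higher in each model. Without tumor 2, the interferon gamma median in 4T1 was 0.01. Cxcl9, the chemokine that attracts T-cells through CXCR3, had 1064, 317, 403 and 2620 normalized read counts in untreated 4T1 tumors and 1167, 3635, 1619, 856 and 1113 in treated ones. 66cl4 tumors had 46.3, 64.2, 49.2, 135 and 57.4 without and 112, 277, 213, 276 and 124 with anti-PD-1. The response was 0.78 ± 0.43 in 4T1 and 0.83 ± 0.41 in 66cl4, at a level that was higher in every 4T1 tumor than in any 66cl4 tumor. The difference was -0.05 ± 0.60, which does not show that the responses were equal. For the 16 type I interferon-stimulated genes the medians were 0.01 and 0.07.

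**Figure D4:**
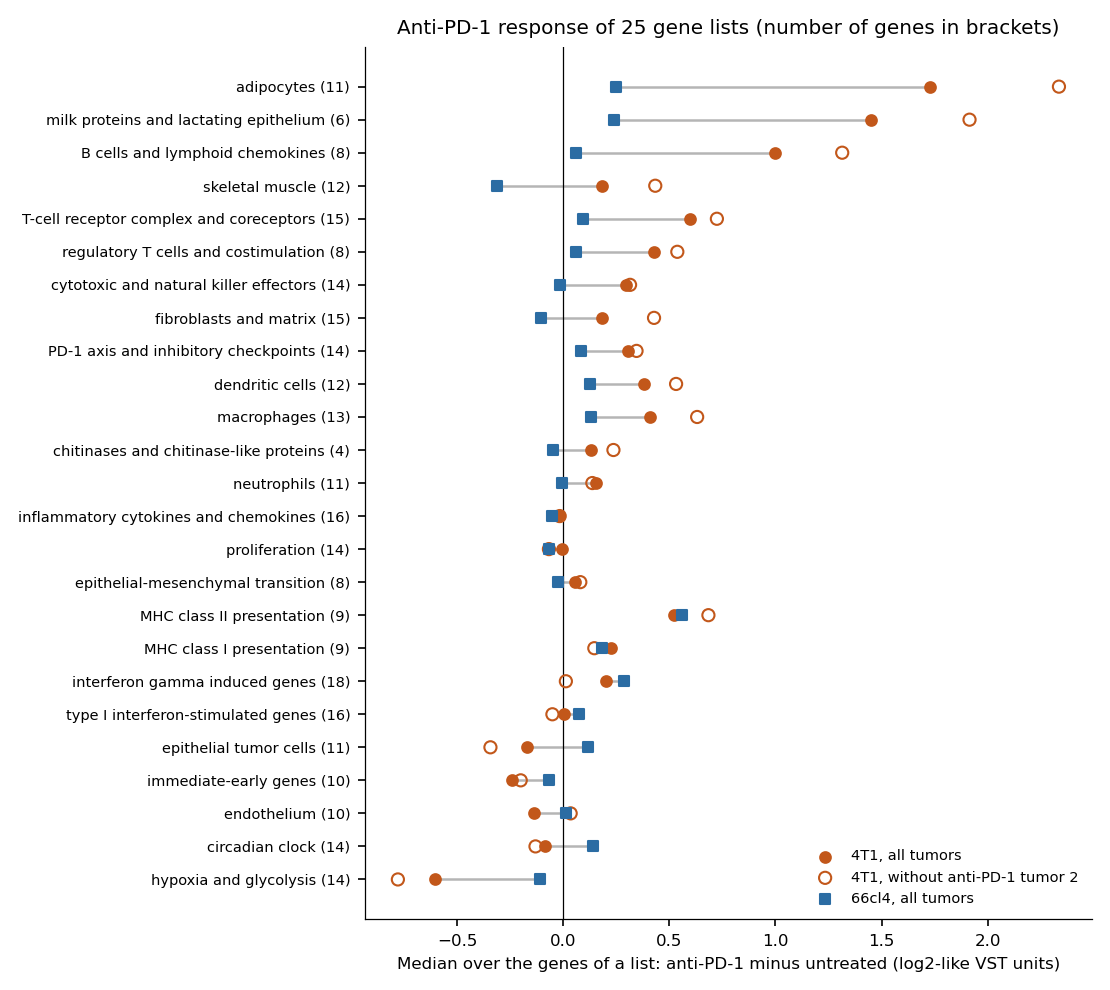
Median response to anti-PD-1 (log2-like VST units) of 25 gene lists in 4T1 (orange points, open circles without anti-PD-1 tumor 2) and 66cl4 (blue squares), ordered by the median difference. The lists of adipocytes, milk proteins, B-cells and T-cells have orange points well to the right of the squares, hypoxia and glycolysis has the reverse, and MHC class II lies at 0.52 and 0.56.

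In the myeloid lists the median differences were smaller than in the B-cell and T-cell receptor lists. Without tumor 2 the medians were 0.40 for dendritic cells, 0.48 for macrophages and 0.17 for neutrophils, against 0.59 for T-cell receptor and 1.25 for B-cell genes. Dendritic cells (12 genes) had a median difference of 0.25. Ccr7, the receptor that guides mature dendritic cells and naive lymphocytes, differed by 0.62 ± 0.27, and Cd209a by 0.81 ± 0.36. These 2 of the 12 genes had an unadjusted p under 0.05, against 2.83% of all genes in this direction. The same 2 passed the adjusted test without tumor 2 (limma, 0.0367 and 0.0153), against 0.81% of all genes. Macrophage genes (13) had a median difference of 0.23, with the lipid receptor gene Trem2 at 0.54 ± 0.24. Neutrophil genes (11 of 14 measured) had 0.19 and were mixed, since the decoy receptor gene Il1r2 had a lower response in 4T1 (-0.48 ± 0.15, adjusted p = 0.0211 without tumor 2), while Camp (0.36 ± 0.14) and Retnlg (0.59 ± 0.26) had a higher one. By tumor, Il1r2 had 114, 100.1, 74.7 and 74.7 normalized read counts in untreated and 29.6, 76.3, 31.99, 29.9 and 36.7 in treated 4T1 tumors, with tumor 2 alone within the untreated range. The 4 measured genes of chitinases and chitinase-like proteins had a median difference of 0.20 with 0 at an unadjusted p under 0.05. Inflammatory cytokines and chemokines (16 genes) had 0.12, with the chemokines Ccl3 (0.42 ± 0.17) and Ccl4 (0.38 ± 0.16) at an unadjusted p under 0.05, and proliferation genes (14) 0.06.

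Mean levels of mammary fat and lactating epithelium markers were also above every untreated 4T1 tumor in treated tumors 1, 3, 4 and 5. Among these, tumor 3 had the lowest adipocyte level (8.67), the lowest B-cell level (8.09) and the highest T-cell receptor level (8.21). Tumor 2 had the lowest level of all treated 4T1 tumors in the adipocyte (6.37), B-cell (6.71) and T-cell receptor (7.47) lists. No correlation between the lists was computed. The 6 milk protein and lactating epithelium genes measured, of 11, had a median response of 1.45 in 4T1 and 0.24 in 66cl4, and 1 (Csn2) had an unadjusted p under 0.05 for the difference. Adipocyte genes (11 of 12 measured) had a median response of 1.73 in 4T1 and 0.25 in 66cl4, and 11 of 11 were higher under anti-PD-1 in both models. Their mean VST level was 6.75, 6.57, 7.44 and 7.87 in the untreated and 10.40, 6.37, 8.67, 9.51 and 9.21 in the treated 4T1 tumors, so that tumors 1, 3, 4 and 5 were above all untreated tumors and tumor 2 below them all. In 66cl4 the mean level was 6.66 to 7.19 in untreated and 6.59 to 8.31 in treated tumors. Lep, the gene of leptin, had 0, 0, 1.82 and 0 normalized read counts in untreated and 117, 0, 15.4, 46.9 and 36.7 in treated 4T1 tumors. Csn2, which encodes beta-casein, had 2.36, 0, 25.5 and 13.1 in untreated and 808, 0, 114, 411 and 663 in treated 4T1 tumors, and at most 44.0 in 66cl4.

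The B-cell list had a mean level of 6.47, 6.44, 7.06 and 7.43 in untreated and 8.35, 6.71, 8.09, 8.37 and 8.44 in treated 4T1 tumors, with tumor 2 within the untreated range and the other 4 above it. The T-cell receptor list had 7.25, 7.05, 7.15 and 7.78 in untreated and 7.98, 7.47, 8.21, 7.88 and 8.08 in treated 4T1 tumors, in which tumor 2 was above 3 of the 4 untreated tumors. Without tumor 2, 3 of the 11 adipocyte genes (Lep, Cidec and Plin4) and Csn2 passed the adjusted test of the difference, against 0.81% of all genes in this direction. The part of mammary fat and gland tissue in the lymphocyte results was not tested.

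**Figure D5:**
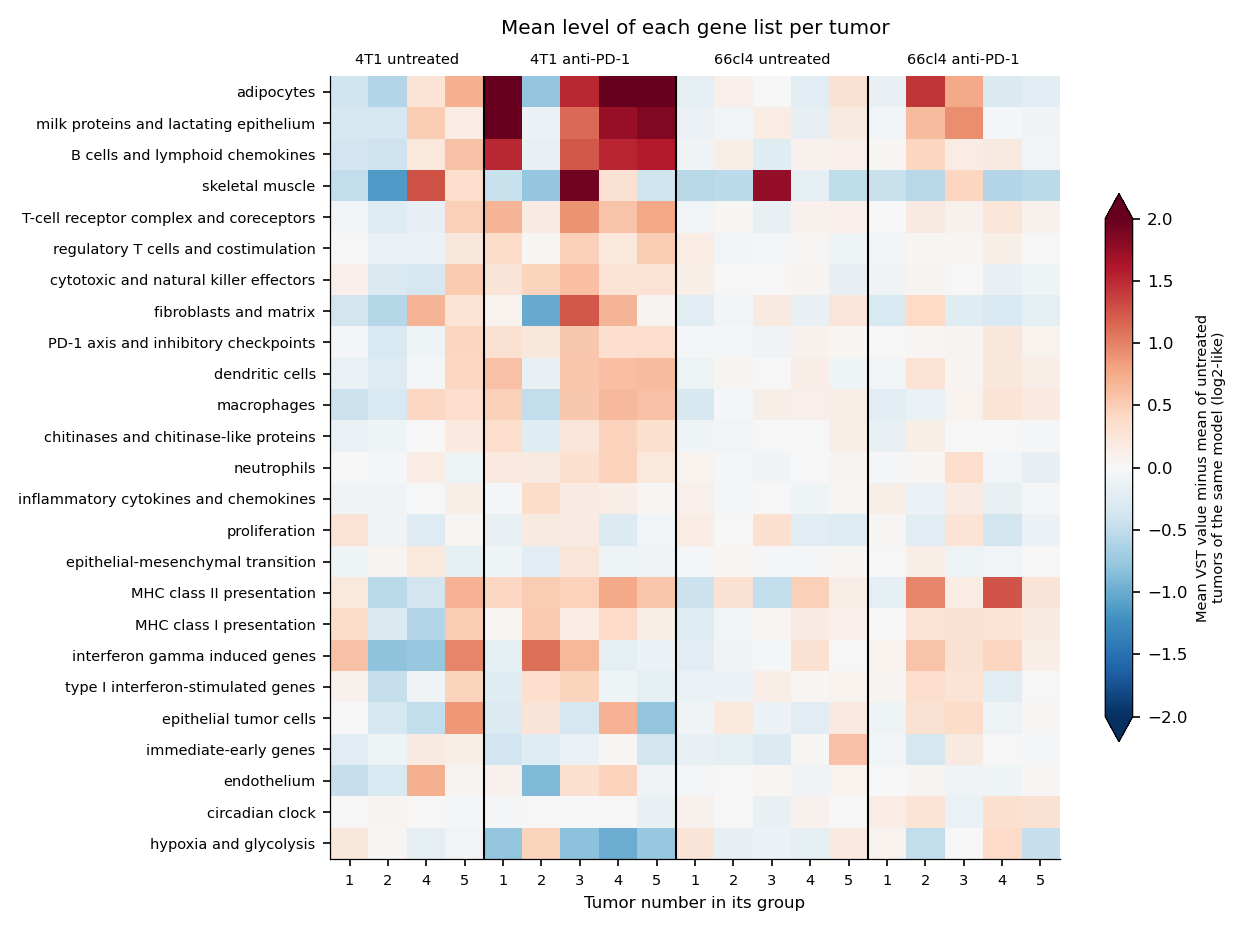
Mean VST level of each gene list in each of the 19 tumors, minus the mean of the untreated tumors of the same model (log2-like, red higher, blue lower, colour scale cut at 2 and -2). In the 4T1 anti-PD-1 group, tumors 1, 3, 4 and 5 are red for adipocytes, milk proteins, B-cells and T-cells and blue for hypoxia and glycolysis, and tumor 2 is reversed for adipocytes and hypoxia. In 66cl4, skeletal muscle in untreated tumor 3, adipocytes in anti-PD-1 tumor 2 and MHC class II in anti-PD-1 tumors 2 and 4 are also red. Skeletal muscle is red too in 4T1 untreated tumor 4 and 4T1 anti-PD-1 tumor 3.

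Hypoxia and glycolysis genes lay on the other side of 0. All 14 had a lower response in 4T1 than in 66cl4, with a median response of -0.60 in 4T1 and -0.11 in 66cl4 and a median difference of -0.52. With all tumors 1 gene, Ankrd37, had an unadjusted p under 0.05, against 4.29% of all genes in this direction. Ankrd37, a target of hypoxia-inducible factors, had 131, 136, 122 and 129.7 normalized read counts in untreated and 42.4, 96.4, 39.7, 28.1 and 62.2 in treated 4T1 tumors, which did not overlap, and 95.1, 79.1, 94.96, 81.1 and 115 without and 109, 33.1, 79.6, 159 and 56.1 with anti-PD-1 in 66cl4. The mean level of the list was 10.95, 10.74, 10.53 and 10.68 in untreated and 9.94, 11.18, 9.91, 9.73 and 9.97 in treated 4T1 tumors, with tumor 2 above every untreated tumor and the other 4 below. Without tumor 2, Ndrg1 passed the adjusted test of the difference (-1.56, limma, adjusted p = 0.0301), against 0.629% of all genes in this direction. The response within 4T1 then passed for 9 of 14 genes, all lower, against 7.1% of all genes in this direction.

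Ddit4, which encodes an inhibitor of mTORC1 that is induced by hypoxia and other stresses, is not on this list and was chosen after its values were seen. It had 3568, 3157, 4445 and 2421 normalized read counts in untreated and 1303, 3182, 1195, 1542 and 1327 in treated 4T1 tumors. In 66cl4 it had 365, 506, 376, 453 and 635 without and 625, 668, 463, 818 and 407 with anti-PD-1. The difference of responses was -1.28 ± 0.33, and -1.51 without tumor 2 (adjusted p = 0.0126). Slc2a1, the glucose transporter GLUT1, had 4138, 3090, 1918 and 2498 in untreated and 947, 4980, 1211, 1036 and 1058 in treated 4T1 tumors, with a difference of -0.67 ± 0.51.

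The promoters of Ddit4 and Slc2a1 are shown because the core of the hypoxia response element, ACGTG, occurs in them. It was found on either strand of the 250 bases before an annotated start in 10 of the 13 hypoxia list genes with an entry (76.9%), against 24.4% of all 11334 genes. The list is of known hypoxia genes, for which such a motif is part of what they are known for. Ndrg1 has no entry. The motif is in capitals.
Ddit4, minus strand, chr10:59951771-59952020: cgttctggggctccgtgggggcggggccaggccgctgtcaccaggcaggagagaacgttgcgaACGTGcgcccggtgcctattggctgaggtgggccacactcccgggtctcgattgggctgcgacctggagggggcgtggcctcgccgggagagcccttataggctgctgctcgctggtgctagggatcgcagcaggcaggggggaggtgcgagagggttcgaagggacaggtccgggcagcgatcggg
Slc2a1, plus strand, chr4:119108495-119108744: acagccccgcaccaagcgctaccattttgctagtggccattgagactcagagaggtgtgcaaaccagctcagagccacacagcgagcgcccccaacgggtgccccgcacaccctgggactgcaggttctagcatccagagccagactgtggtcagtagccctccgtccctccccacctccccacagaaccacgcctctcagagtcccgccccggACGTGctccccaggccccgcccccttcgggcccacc

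Among structural lists, epithelial tumor cell genes (11) had a median difference of -0.06, but the tight junction genes Cldn3 (-0.91 ± 0.38) and Cldn4 (-1.10 ± 0.47) were each lower in the 4T1 response. Cldn4 had 5976, 5585, 3956 and 4816 normalized read counts in untreated and 1349, 4426, 2526, 6641 and 1336 in treated 4T1 tumors, in which tumor 4 was the highest and tumors 1 and 5 the lowest of all 9. Fibroblast and matrix genes (15) had a median difference of 0.30, skeletal muscle (12) 0.51, endothelium (10) -0.15, genes of epithelial-mesenchymal transition (8) 0.06 and immediate-early genes (10) -0.13, each with 0 genes at an unadjusted p under 0.05.

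The 14 genes of the circadian clock had a median response of -0.08 in 4T1 and 0.14 in 66cl4. For 4 genes the unadjusted p of the difference was under 0.05, all with a lower response in 4T1 (4.29% of all genes). Within the models, 4 genes were higher under anti-PD-1 in 66cl4 at this p (0.719% of all genes). In 4T1, 1 gene was lower (8.7% of all genes). Per1, a repressor of the circadian clock, had 414, 327, 309 and 241 normalized read counts in untreated and 168, 266, 289, 223 and 173 in treated 4T1 tumors. Per1 in 66cl4 was at 345, 375, 167, 276 and 431 in untreated and 691, 730.3, 259, 399 and 395 in treated tumors, and the groups of both models overlapped. The difference was -0.84 ± 0.30, and it was -0.66 ± 0.24 for Nr1d2, -0.51 ± 0.22 for Per3 and -0.53 ± 0.23 for Tef. The hour of collection is not given in the sources used here.

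The same contrast was formed in the 20 chitin-treated tumors, as chitin + anti-PD-1 minus chitin in 4T1 less that in 66cl4, which shares no tumor with the values above. There, 0 of 14318 genes (0%) passed the adjusted test and 516 had an unadjusted p under 0.05, against 1019 without chitin. Of the 24 leading genes, 14 had the same sign, 7 of the 12 higher and 7 of the 12 lower ones, which is close to an even split. The share of genes with the same sign over all 14318 was not computed. Zfp113 gave -0.38 (adjusted p = 0.673), Fbxl12 -0.20 and Esyt3 -0.29, in the same direction as without chitin. Sh2d1a gave 0.07, Cd2 -0.09 and Acsl4 -0.06. The median difference was -0.09 for the T-cell receptor list, -0.12 for B-cells, -0.56 for adipocytes and 0.37 for hypoxia and glycolysis, against 0.46, 0.95, 1.29 and -0.52 without chitin. Whether the 2 contrasts differ was not tested. Per1 gave 0.94, opposite in sign to its value without chitin, and the neutrophil gene Retnlg 0.97, in the same direction.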

How the data were processed

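RNA of 4T1 and 66cl4 primary tumors was sequenced as stranded libraries. The authors aligned reads to mm10 with HISAT2 (submitters' processing notes), counted them per gene with summarizeOverlaps taking strand into account, removed genes that did not exceed 10 reads in 10% of cases, and deposited log2-like values after the variance-stabilizing transformation (VST) of DESeq2. The lowest value, 6.0514, stands for 0 reads. Inverting the transformation gave whole reads for 100% of values (tolerance 0.001), from which reads per tumor and normalized read counts were taken. Depth speaks to counting error only. Untreated 4T1 tumor 3 was not analysed here.

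VST values of 19 tumors were fitted in limma 3.58.1 (R 4.3.3) with 4 groups and a mean-variance trend. The contrast was the 4T1 minus the 66cl4 response, and p-values were adjusted by Benjamini-Hochberg over 14318 genes. All p-values are two-sided. The fit was tested on simulated data. Named genes were the 12 with the smallest p in each direction (Gm-number and Rik names left out), up to 4 members of each list with an unadjusted p under 0.05, and a fixed set of 8 (Pdcd1, Cd274, Cd8a, Cd4, Foxp3, Ifng, Gzmb, Cxcl9). Others were named from their list or after their values were seen. Members and lists were chosen with earlier results of these data known. Alternatives were all 39 tumors in the fit, a filter on low values, other scalings, weights, a block, limma-voom, equal depth and leaving out each tumor. Gene positions and promoters came from RefSeq (GRCm38.p6), matched for 14309 of 14318 genes.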

Additional observations from a re-analysis of the deposited data

Results flagged for a closer look

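In groups of 4 or 5 tumors, the highest or lowest tumor was far from the others in 15 of 228 cases examined, where chance gives about 1 in 20. Of the gene values (VST), Ift20 was 8.51 in 4T1 anti-PD-1 tumor 2 (others 8.82 to 8.95), Creld2 9.34 in 4T1 untreated tumor 5 (8.93 to 8.95), Esyt3 7.84 in 4T1 anti-PD-1 tumor 3 (8.19 to 8.31) and Fbxl12 8.71 in 4T1 untreated tumor 2 (8.47 to 8.51). In 66cl4, Zfp810 was 7.21 in untreated tumor 4 (6.99 to 7.03), Ifng 6.22 in untreated tumor 3 (0 reads in the others) and Cxcl9 7.97 in untreated tumor 4 (7.22 to 7.42).

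Of the list means, 4T1 anti-PD-1 tumor 2 was apart for B-cells (6.71, others 8.09 to 8.44), dendritic cells (7.11, 7.82 to 7.89), macrophages (9.83, 10.79 to 10.97) and hypoxia and glycolysis (11.18, 9.73 to 9.97). The clock list was 7.71 in 4T1 anti-PD-1 tumor 5 (7.84 to 7.87). In 66cl4, skeletal muscle genes were at 8.69 in untreated tumor 3 (6.37 to 6.74) and at 7.36 in anti-PD-1 tumor 3 (6.35 to 6.49), and fibroblast and matrix genes at 10.68 in anti-PD-1 tumor 2 (9.97 to 10.09).

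For 9 of 32 genes examined, every treated 4T1 tumor lay on one side of the untreated mean of its model and every treated 66cl4 tumor on the other. The differences of responses were 0.90 for Col6a6, 0.45 for Sh2d1a, 0.46 for Ift20, 0.46 for Dnm3os, -0.87 for Esyt3, -0.46 for Zfp113, -0.40 for Fbxl12, -0.36 for Limd1 and -0.41 for Zfp810. These are leading genes, chosen by the same values, and the limma test of each difference missed an adjusted p of 0.05.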

How the results depend on the processing

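The number of genes at an adjusted p under 0.05 for the difference of responses (0 with all tumors, 1019 unadjusted) was 169 with weights per tumor, of which 124 were shared with the 206 found without 4T1 anti-PD-1 tumor 2, and 0 with the other 9 settings that kept every tumor, limma-voom on recovered reads included (889 unadjusted). Leaving out each tumor gave 0 to 206 genes, with 20 without 4T1 untreated tumor 5, 1 without 4T1 untreated tumor 4, and 0 for the other 16. Within 4T1 the number was 60 with all 39 tumors in the fit, 8 without the trend, 8 with median centring, 15 with quantile normalization, 1402 with weights per tumor, and 0 to 2165 on leaving out each tumor (594 without untreated tumor 5, 3 without anti-PD-1 tumor 4 and 1 without untreated tumor 4). The 66cl4 number was 0 throughout. The difference of Cd274 ranged from -0.34 to 0.20 on leaving out each tumor (0.20 without 4T1 untreated tumor 5), that of Cd8a -0.16 with voom and -0.10 at equal depth, that of Ifng -0.0042 with quantile normalization, -0.0288 with weights and -0.43 with voom, that of Gzmb -0.14 with weights and -0.0759 to 0.62 on leaving out each tumor (-0.0759 without 4T1 untreated tumor 4), and that of Cxcl9 0.0096 with quantile normalization and -0.41 to 0.47 on leaving out each tumor (0.47 without 4T1 untreated tumor 5). The cause was not tested. Over 67 named genes and 772 comparisons, 705 kept direction and side of the threshold and 57 passed it with direction kept.

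With the tumor number as a replicate block, the number of genes was 0 (923 unadjusted). Same-numbered tumors of different groups had correlations of -0.324 to 0.539 (27 pairs, median 0.031). For different numbers they were -0.497 to 0.424 (108 pairs, median -0.017). The pairs are not independent, and tumors within a group were not compared in this way. Apart from this block, tumors were not paired by number, and a shared batch or mouse was not tested.

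Limits are the 4 or 5 tumors per group, 1 untreated 4T1 tumor fewer than the others, and reads of 5105898 to 9898937, at which genes such as Ifng and Ms4a1 in 66cl4 rest on a few reads each.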

Other observations

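The following genes were chosen after their values were seen, from no fixed list, and none passed the adjusted test of the difference with all tumors (limma). The growth factor receptor gene Fgfr2 had 995, 1479, 1884 and 1004 normalized read counts in untreated and 710.5, 913, 223, 338 and 529.9 in anti-PD-1 4T1 tumors, which did not overlap, and 252, 221, 126, 176 and 156 without and 189, 203, 223, 298 and 184 with anti-PD-1 in 66cl4. Its difference of responses was -1.37 ± 0.35, and -1.56 without 4T1 anti-PD-1 tumor 2 (limma, adjusted p = 0.0221). Among inhibitors of growth factor signalling, the difference was -0.48 ± 0.20 for Spry2, -0.51 ± 0.22 for Spry4, -0.38 ± 0.32 for Dusp4 and -0.23 ± 0.14 for Spred1, and among ETS factors -0.50 ± 0.20 for Etv5 and -0.12 ± 0.20 for Etv4. The unadjusted p was under 0.05 for Spry2, Spry4 and Etv5 and above it for Dusp4, Spred1 and Etv4. The adhesion kinase gene Ptk2 differed by -0.34 ± 0.12 and the transcriptional coactivator gene Yap1 by -0.42 ± 0.19.

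Retnla, a marker of alternatively activated macrophages, had 0, 0, 2.73 and 24.9 normalized read counts in untreated and 920.0, 4.01, 160.0, 601 and 1041 in anti-PD-1 4T1 tumors, against 16.3, 33.2, 34.3, 30.9 and 0 without and 2.57, 47.4, 19.01, 106 and 11.9 with anti-PD-1 in 66cl4. Tumor 2 was within the untreated range and the other 4 treated tumors were above it. Its difference was 2.33 ± 0.77, and 2.95 without tumor 2 (adjusted p = 0.0128). The glucocorticoid-activating enzyme gene Hsd11b1 differed by 1.10 ± 0.33. For genes known from B-lymphocytes, the difference was 0.64 ± 0.25 for Siglecg, 0.87 ± 0.31 for Pou2af1, 0.81 ± 0.35 for Ltb and 0.54 ± 0.31 for Spib, of which Spib did not reach an unadjusted p under 0.05.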
